A study of Sus scrofa with 27 samples.

Results

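Marker genes of the vascular endothelium, the cell layer that lines blood vessels, were followed in RNA of pig mural granulosa cells (GCs). The 10 genes were chosen by symbol, as CDH5, EMCN, PECAM1, KDR, FLT1, TEK, TIE1, VWF, ESAM and CLDN5. An Ensembl identifier was paired with 9 of them, out of 35670 identifiers in the count tables, and all 9 were among the 11384 genes tested. VWF was not analysed here.

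Before ovulation the granulosa layer of a follicle holds no blood vessels. The capillaries end in the theca, on the other side of the basement membrane, and so endothelial transcripts in a granulosa preparation serve as markers of vessel RNA. Endothelial cells are joined by VE-cadherin and other junction proteins, respond to vascular endothelial growth factor (VEGF) through the receptors KDR and FLT1, and carry the receptor pair TEK and TIE1, which respond to angiopoietins.

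The animals were wild-type first-parity TN70 sows, a cross of Large White and Norwegian Landrace. Full-fed (FF) sows received 6.5 kg of feed per day and restricted (RES) sows 3.25 kg per day for 2 weeks of lactation before weaning, and both groups were then fed alike until the ovaries were taken on day 2 after weaning. Mural GCs were cut by laser capture from 1 follicle per sow, the largest that was healthy in the right ovary, and 1 library was sequenced for each of 13 FF and 14 RES sows. The sows were picked from larger feeding groups for the extremes of their body weight loss, and follicle size was not part of the fits, so that diet, weight loss and follicle size cannot be told apart.

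The libraries held 12299220 to 16021200 counts in FF and 12942198 to 18120922 in RES. All 13 granulosa genes examined, among them INHA, FSHR and GATA4, were detected in every library. A gap in the study's base-quality statistics divides the libraries into an upper quality group of 7 FF and 7 RES sows and a lower quality group of 6 FF and 7 RES sows. The record of FF sow 10, placed in the lower group, is unclear. Values below are counts scaled with DESeq2's size factors (normalized counts), as mean ± SD unless stated otherwise, whereas fold changes come from the edgeR fit with TMM factors and can differ a little from the ratio of the means.

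CDH5 lies on chr6:27108560-27142145 of Sscrofa11.1 on the plus strand, PECAM1 on chr12:14667643-14723296 on the plus strand, and TEK on chr1:195938177-196052294 on the minus strand. KDR (chr8:41809116-41856379), FLT1 (chr11:5620698-5797095), TIE1 (chr6:167919662-167947253), ESAM (chr9:51983019-51992415) and CLDN5 (chr14:51161490-51162382) are on the minus strand, and EMCN (chr8:120174091-120227971) is on the plus strand, in the RefSeq annotation. PECAM1 overlaps an uncharacterized gene on the opposite strand, and the end of TEK overlaps another. Reads were counted without a strand option, so reads of these genes and their partners cannot be told apart.

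The 250 bases before the RefSeq start of PECAM1 and TEK are given 5′ to 3′ on the strand of the gene, because these members varied together across sows and can be compared for the motifs of endothelial transcription factors. Capitals mark GGAA or its reverse complement TTCC, the core bound by ETS factors, searched on both strands. PECAM1 is read from chr12:14667393-14667642 (plus strand) and TEK from chr1:196052295-196052544 (minus strand).
PECAM1: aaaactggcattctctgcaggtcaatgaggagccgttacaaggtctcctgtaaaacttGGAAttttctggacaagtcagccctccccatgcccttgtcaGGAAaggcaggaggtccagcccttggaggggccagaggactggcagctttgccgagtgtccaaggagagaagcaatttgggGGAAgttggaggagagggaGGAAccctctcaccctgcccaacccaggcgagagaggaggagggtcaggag
TEK: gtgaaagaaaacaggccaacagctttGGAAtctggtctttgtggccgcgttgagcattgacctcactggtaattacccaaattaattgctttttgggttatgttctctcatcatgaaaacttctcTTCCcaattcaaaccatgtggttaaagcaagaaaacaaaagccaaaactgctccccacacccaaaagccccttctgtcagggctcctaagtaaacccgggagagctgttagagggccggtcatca

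The GGAA core was present 4 times in the PECAM1 window and 2 times in the TEK window. It was found in 7 of 8 member windows searched, those of EMCN, PECAM1, KDR, FLT1, TEK, TIE1 and CLDN5 but not ESAM, and in 92.7% of 19531 windows of the same length before protein-coding genes, so its presence does not set the members apart. The composite FOX:ETS motif AACAGGAA, which contains the core and is present in 1.66% of all windows, was found in none of these 8. The same held for the SOX-like motif AACAAT (7.07% of all windows), the longer ETS motif AGGAAG (25%) and the GATA-like motif AGATAA (8.08%).

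Divided by exon length, EMCN, which codes for the sialomucin endomucin, had the highest level in FF GCs, at 212 ± 66.5 normalized counts per kb (n = 13). PECAM1, an adhesion molecule of endothelial cells that platelets and leukocytes also carry, followed with 102 ± 25.6 per kb, and KDR with 67.3 ± 15.7 per kb. CDH5 was at 36.0 ± 6.6 per kb, FLT1 at 20.9 ± 4.57 per kb and CLDN5 at 18.6 ± 6.33 per kb. TEK (16.0 ± 4.41 per kb), ESAM (10.8 ± 2.58 per kb) and TIE1 (4.92 ± 1.80 per kb) were lowest. The neighbouring levels of FLT1 and CLDN5, and of CLDN5 and TEK, differed by less than their SD. In RES GCs TEK (11.3 ± 5.07 per kb) and CLDN5 (10.9 ± 3.61 per kb) exchanged places within their SD, and the other places were the same. Of the other neighbours in RES, EMCN (127 ± 42.1 per kb) and PECAM1 (96.1 ± 37.0 per kb), and ESAM (7.19 ± 3.22 per kb) and TIE1 (6.73 ± 3.79 per kb) also differed by less than their SD. TIE1 remained lowest in both groups when its longest transcript was used in place of all its exons (5.21 and 7.13 per kb). That transcript has 10371 bases against 10990 for all exons, so this check could change the level only a little. Lengths were those of RefSeq while reads were counted on Ensembl models. The place of TIE1 thus depends on its RefSeq length, and other lengths were not tested.

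RES and FF GCs were then compared gene by gene. The junction genes CDH5, ESAM and CLDN5 and the sialomucin gene EMCN were lower in RES GCs, where they fell by 32.1% to 42.6%. The receptor genes KDR, FLT1, TEK and TIE1 and the adhesion gene PECAM1 did not pass the test, and TIE1 had the opposite sign. This division is that of the threshold, and a difference by gene function was not tested. TEK (log2 fold change −0.54) was close to CDH5 (−0.56), and no difference in their ratio was found between diets (permutation p = 0.995). TEK and KDR passed in some of the alternative fits below. In edgeR's quasi-likelihood test 4 of 9 members were called at an adjusted p under 0.05, all lower. Over all tested genes, 14.1% were called in either direction, 5.85% lower and 8.29% higher in RES. Without RES sow 7, 6 members were called lower, beside 9.63% of all genes. The median log2 fold change was −0.54 over the members, of which 8 of 9 were negative, and −0.015 over all tested genes. In bulk RNA, fewer endothelial cells and less of a transcript per cell cannot be told apart.

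CDH5, the gene of VE-cadherin, the adhesion molecule of endothelial junctions, ranged from 101 to 195 normalized counts in FF GCs with a median of 132, and from 51.6 to 196 in RES GCs with a median of 89.7. The lowest value of FF lay above 9 of 14 RES sows, while RES sow 7 was as high as the highest FF sow. The means were 139.8 ± 25.6 in FF (n = 13) and 97.5 ± 34.0 in RES (n = 14), and the fitted log2 fold change was −0.56 (SE 0.15) with an adjusted p = 0.0113 in edgeR.

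ESAM, an immunoglobulin-type adhesion molecule of endothelial tight junctions, ranged from 13.2 to 31.6 normalized counts in FF GCs (median 20.3) and from 5.11 to 27.8 in RES GCs (median 13.3). The groups overlapped, with 7 of 14 RES sows below the lowest FF sow and RES sow 3 highest among RES. The estimate for RES against FF was a log2 fold change of −0.62 (SE 0.20) in edgeR, at an adjusted p = 0.0321. ESAM rested on 6 to 34 counts per library, and its spread in FF, a coefficient of variation of 24.0%, was close to the 22.6% that counting alone gives, while in RES it was 44.8% against 26.5%. Its call was lost in 5 of 27 fits that each left out 1 sow, namely FF sow 1, FF sow 2, RES sow 1, RES sow 8 or RES sow 9 (adjusted p 0.0522 to 0.0581).

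CLDN5, the claudin of endothelial tight junctions, ranged from 7.02 to 26.7 normalized counts in FF GCs (median 16.3) and from 5.96 to 17 in RES GCs (median 9.08). It was under the median of FF in 13 of 14 RES sows, and 5 FF sows were above the highest RES sow. The log2 fold change of −0.80 (SE 0.20, adjusted p = 0.00797 in edgeR) was called in every one of the 27 fits without 1 sow. CLDN5 rested on 7 to 28 counts per library.

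EMCN ranged from 284 to 873 normalized counts in FF GCs (median 476) and from 215 to 567 in RES GCs (median 278). The lowest value of FF was above 7 of 14 RES sows, and 4 FF sows were above the highest RES sow, sow 7. The means were 509 ± 159 in FF (n = 13) and 305 ± 101 in RES (n = 14). EMCN had the smallest adjusted p of the members (log2 fold change −0.78, SE 0.16, adjusted p = 0.00283 in edgeR).

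**Figure D1:**
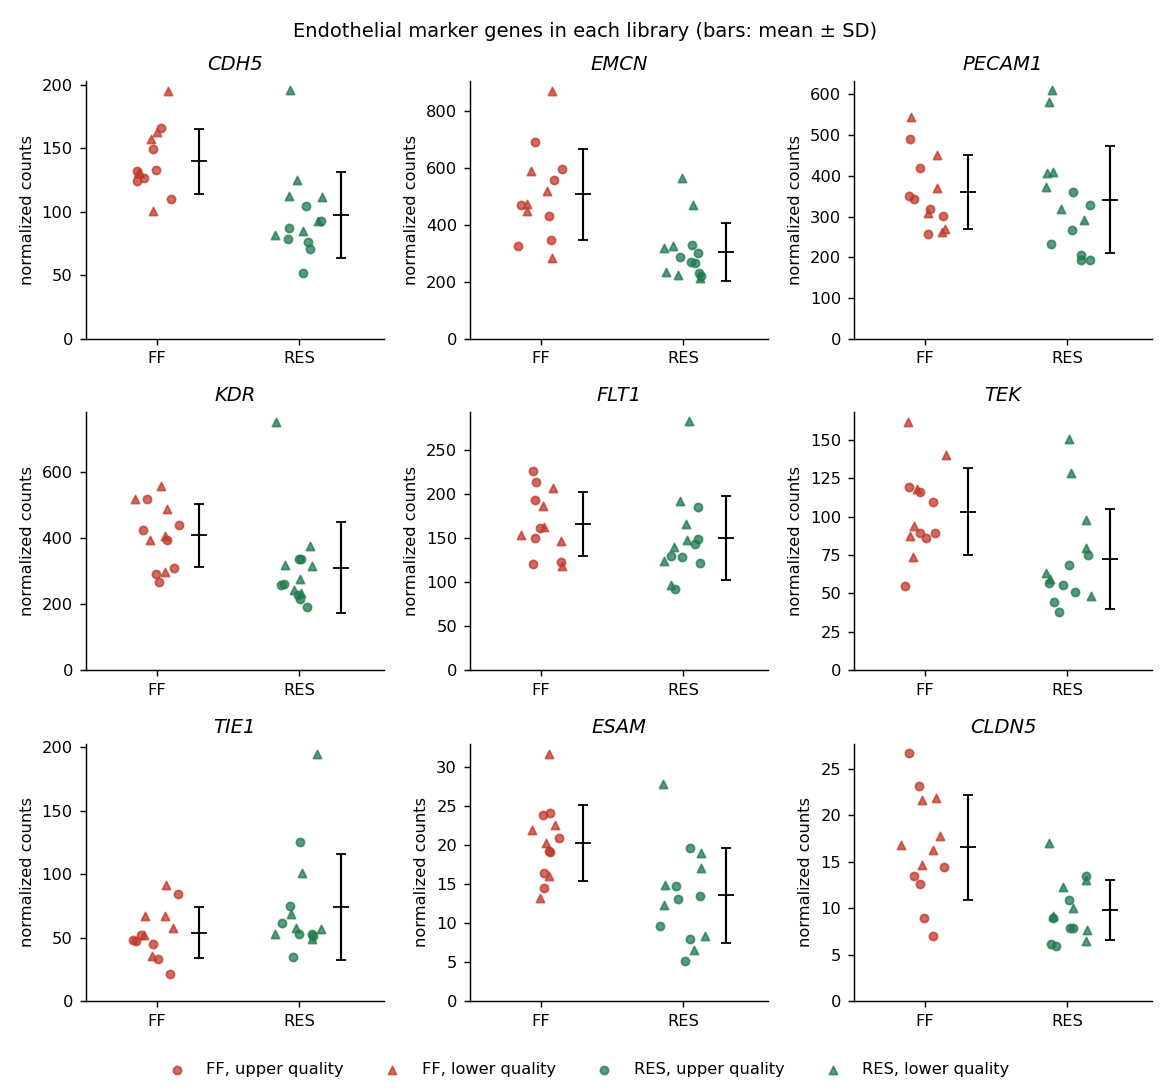
Normalized counts of the 9 endothelial marker genes (vertical axis, from 0) in each FF (n = 13) and RES (n = 14) library, with circles for the upper and triangles for the lower quality group and bars for mean ± SD. EMCN shows the lower RES values with 7 of 14 RES sows below the lowest FF sow, whereas TIE1 shows 3 RES sows above the highest FF sow.

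KDR, the main signalling receptor for VEGF, ranged from 268 to 558 normalized counts in FF GCs (median 406) and from 192 to 754 in RES GCs (median 269). RES sow 7 was above every FF sow, and the remaining 13 RES sows were below the FF median. The estimate for RES against FF was a log2 fold change of −0.43 (SE 0.17) in edgeR, at an adjusted p = 0.0774. Without RES sow 7 it was −0.61 and passed the test (adjusted p = 0.000774, with 0.000774 to 0.63 over all alternatives). KDR passed in no other fit without 1 sow, and in 3 of 12 other alternative fits (adjusted p 0.0028 to 0.0447).

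FLT1, a VEGF receptor that binds the ligand tightly but signals weakly, ranged from 118 to 226 normalized counts in FF GCs (median 161) and from 92.0 to 284 in RES GCs (median 142). Of the RES sows, 11 of 14 lay within the range of FF. The estimate for RES against FF was a log2 fold change of −0.19 (SE 0.14) in edgeR, at an adjusted p = 0.401, and FLT1 passed in no alternative fit.

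TEK, the receptor for angiopoietins, ranged from 54.9 to 162 normalized counts in FF GCs (median 94.0) and from 37.6 to 151 in RES GCs (median 61.2). It was under the median of FF in 11 of 14 RES sows, and RES sow 7 was again the highest of RES. The log2 fold change of −0.54 (SE 0.19) missed the threshold (adjusted p = 0.0563 in edgeR). It passed without FF sow 4, FF sow 10, RES sow 7 or RES sow 14 (adjusted p 0.00708 to 0.0425), and in 7 of 12 other alternative fits. Over all alternatives its adjusted p was 0.00708 to 0.646.

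TIE1, a receptor that partners TEK, ranged from 21.5 to 91.2 normalized counts in FF GCs (median 51.9) and from 34.9 to 194 in RES GCs (median 57.3). RES sows 3, 5 and 11 exceeded the highest FF sow, and the other 11 RES sows lay within the range of FF. TIE1 was the only member with a positive value, 0.40 as a log2 fold change (SE 0.22, adjusted p = 0.227 in edgeR). Leaving out RES sow 3 gave 0.22, and leaving out RES sows 3 and 5, the RES libraries of lowest base quality, gave 0.15, a choice made after seeing the data.

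PECAM1 ranged from 256 to 545 normalized counts in FF GCs (median 343) and from 192 to 612 in RES GCs (median 324). It had 4 RES sows below and 2 above the range of FF. The estimate for RES against FF was a log2 fold change of −0.12 (SE 0.17) in edgeR, at an adjusted p = 0.682. In the upper quality group the means were 354 ± 77.6 in FF (n = 7) and 254 ± 67.2 in RES (n = 7), a log2 fold change of −0.52 (adjusted p = 0.0441 in edgeR). In the lower quality group they were 368 ± 112 in FF (n = 6) and 428 ± 124 in RES (n = 7), with a log2 fold change of 0.18 (adjusted p = 0.789 in edgeR). The difference between both fold changes was −0.70 (SE 0.28, unadjusted p = 0.0192, adjusted p = 0.346 in edgeR).

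In libraries of the upper quality group alone 6 of 9 members were called lower in RES, namely CDH5, EMCN, PECAM1, KDR, TEK and ESAM, beside 7.94% of all genes called lower in that fit, and TIE1 again had a positive value. Within the lower quality group edgeR called 0 of 9 members and 1 gene over the whole table. CLDN5 (p = 0.011) and EMCN (p = 0.0177) had an unadjusted p under 0.05 in edgeR, beside 1385 of all 11384 genes. There, 7 of 9 members had negative values, with PECAM1 and TIE1 positive. The test of the difference in response between the quality groups called 0 genes in edgeR. An unadjusted p under 0.05 was given to 1398 of 11384 genes and to 1 of 9 members, PECAM1, so PECAM1 does not stand out from all genes.

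The 27 other blood endothelial genes tested, a list of transcription factors, receptors and surface proteins, had a median log2 fold change of −0.46, with 26 of 27 negative. Of these, 9 (33.3%) were called lower and 0 higher in RES GCs, beside 5.85% of all genes called lower and 8.29% higher. Without RES sow 7, 14 were called lower, beside 9.63% of all genes. In the lower quality group edgeR called 0 of them, with 25 of 27 negative. There, 7 had an unadjusted p under 0.05 in edgeR, beside 1385 of all 11384 genes. Called over all sows were the adhesion and guidance genes CLEC14A (155 ± 44.1 in FF against 93.7 ± 27.5 normalized counts in RES, log2 fold change −0.77), ROBO4 (−0.61) and CD93 (−0.65), and PTPRB (−0.60), a phosphatase that acts on TEK. The remaining called genes were ADGRL4 (−0.54), APLNR (−0.79), ARHGEF15 (−0.82), NOSTRIN (−0.56) and CYYR1 (−0.48). CALCRL, the calcitonin receptor-like receptor and the gene of the list with the highest mean count, had 643 ± 178 in FF and 467 ± 197 in RES (log2 fold change −0.50, adjusted p = 0.0735 in edgeR). ERG and FLI1, endothelial ETS factors, had log2 fold changes of −0.46 each (adjusted p = 0.171 and 0.0539 in edgeR). SELP, NOS3 and ECSCR were within 0.05 of 0 on the log2 scale.

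**Figure D2:**
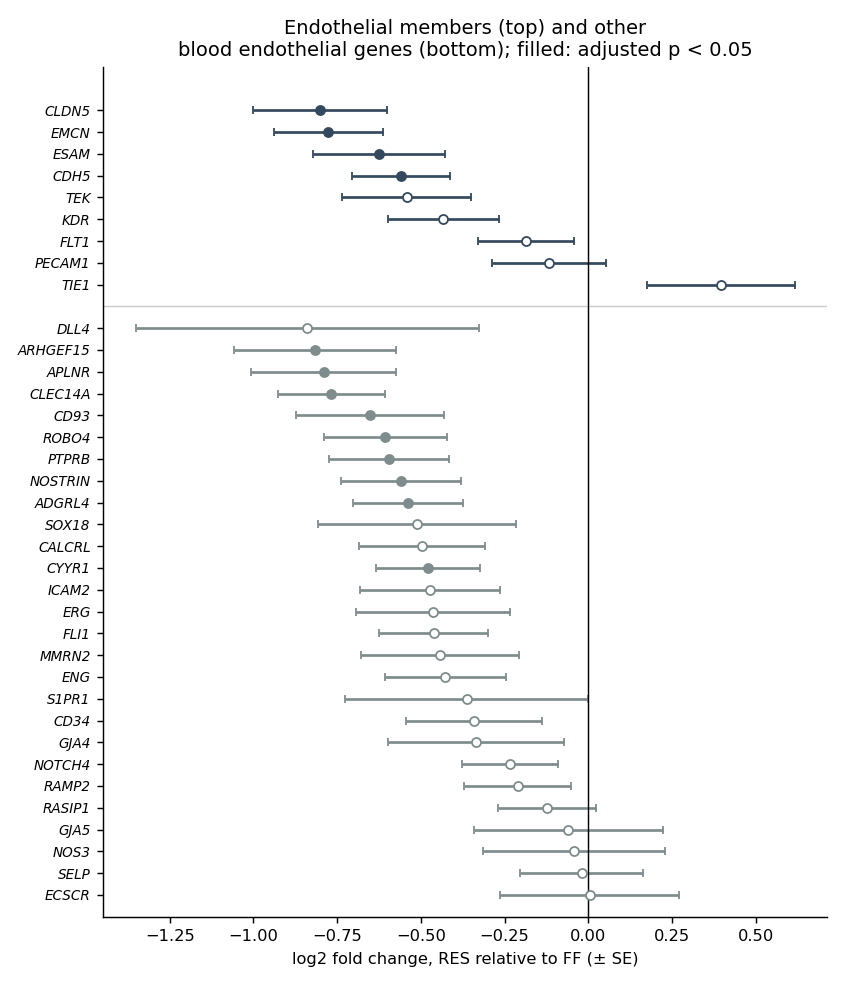
Log2 fold change of RES relative to FF GCs with its standard error (horizontal axis) for the 9 endothelial members (top) and 27 other blood endothelial genes (bottom), with filled points at an adjusted p under 0.05. All filled points, 4 members and 9 other genes, lie below 0, and TIE1 is the member above 0.

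The proteins of these junctions that are also made by other cells were tested as a list of 14 partners of CDH5, ESAM and CLDN5. Their median log2 fold change was −0.07, and 1 (7.14%) was called lower, near the 5.85% of all genes called lower. It was CTNND1, the gene of p120-catenin, at −0.24 (adjusted p = 0.0496 in edgeR). That call was lost with the size factors of DESeq2 (adjusted p = 0.0754) and in 19 of 27 fits without 1 sow, and its adjusted p was 0.00188 to 0.83 over all alternatives. Beta-catenin (CTNNB1) and ZO-1 (TJP1), with log2 fold changes of −0.01 and 0.02, were near 0, and VCL was at −0.05. F11R, a junctional adhesion molecule, was at −0.98 with a wide error (SE 0.36, adjusted p = 0.0606 in edgeR).

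Markers of the other cells at the follicle wall were measured beside the members. Of 12 mural cell genes, which mark pericytes and smooth muscle of vessels, 2 (16.7%) were called lower and 0 higher, with a median of −0.39. Over all genes 5.85% were called lower. The called genes were RGS5 (log2 fold change −0.77) and PDGFRB (−0.62). The call of PDGFRB was lost in 15 of 27 fits without 1 sow (adjusted p up to 0.0707). Without RES sow 7, 4 mural cell genes and 6 theca and stroma genes were called lower, beside 9.63% of all genes in that fit. In the lower quality group edgeR called 0 of the 12 mural cell genes, with 6 negative and a median of −0.15. The highest mean counts of that list after RGS5 were those of ACTA2 (−0.01) and MYH11 (−0.82, adjusted p = 0.16 in edgeR). Their summed normalized counts were 3413 to 8787 in FF with 4948 as the median, against 2210 to 8822 in RES with 3725. Of 17 theca and stroma genes 1 was called lower, CYP11A1 (−1.28), a share of 5.88% beside 5.85% of all genes, and the summed counts were 32050 to 66360 in FF with 43130 as the median, against 15850 to 70120 in RES with 35210. COL3A1 (−0.42), LHCGR (−0.73) and COL1A2 (−0.12), the highest of that list, did not pass.

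Of 8 tested immune genes 0 were called in edgeR, and their median log2 fold change was −0.52. An unadjusted p under 0.05 was given to 3 of them, beside 3420 of all 11384 genes. DESeq2 called 0, and voom with sample quality weights called 4 lower, beside 1543 of 11384 genes. In edgeR 3 were called lower without RES sow 7, beside 9.63% of all genes, and 2 in the upper quality group, beside 7.94%. With the sow number as a block 1 was called lower, beside 384 of 11384 genes. The summed counts of the immune genes were 203 to 627 in FF and 127 to 598 in RES. LAPTM5 (−0.40), PTPRC (−0.22) and CD163 (−0.82) had the highest counts. Of 4 tested erythroid and platelet genes 2 were called lower, beside 5.85% of all genes. They were the globin gene HBB (−1.89) and ITGA2B (−0.95), while GP9 (−0.28) did not pass. Without FF sow 14 HBB was at −1.10 and its call was lost (adjusted p = 0.0877, with 0.00543 to 0.765 over all alternatives). The list had summed counts of 57.6 to 1091 in FF and 17.5 to 165 in RES. The erythroid and platelet genes PPBP, SLC4A1 and GP1BB were at 0 in 24, 24 and 25 of 27 libraries. Of 13 granulosa genes, 4 of them with negative and 9 with positive values, 0 were called lower and 1 higher, beside 5.85% and 8.29% of all genes. An unadjusted p under 0.05 in edgeR was given to 2, in either direction, beside 3420 of all 11384 genes. The called gene was HSD17B1 (0.56), whose call was lost without RES sow 3 (adjusted p = 0.0512, with 0.00401 to 0.499 over all alternatives), and the summed counts were 111000 to 190600 in FF with 157600 as the median, against 92940 to 241800 in RES with 154900. VCAN (0.11), SERPINE2 (−0.34) and INHBA (0.16) had the highest counts of these. The summed counts of the members were 1317 to 2612 in FF with 1816 as the median, against 958 to 2649 in RES with 1323. The part of other cells' RNA in the lower member values was not tested.

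Whether the members rose and fell together from sow to sow was asked on log2(normalized count + 1), with each diet's mean removed. A set of 5 members picked by these values, CDH5, PECAM1, KDR, FLT1 and TEK, had r of at least 0.59 with each other. It was 0.34 to 0.73 without the 2 farthest libraries, meaning those farthest from the median of the pair's first gene. The genes of a pair are ordered as in the list at the start. TIE1, ESAM and CLDN5 had no other member among the 114 tested genes nearest to each. Over the 36 pairs of members Pearson's r had a median of 0.40 (n = 27 libraries), from −0.20 to 0.81, and 29 were positive. Spearman's rho had a median of 0.41. In permutation tests within diet 20 pairs had a two-sided p under 0.05, and 17 pairs had an adjusted p under 0.05 over the 36 pairs (15 for rho).

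Over all 64792036 pairs of tested genes r had a median of 0.008. At least 0.5 was reached by 14 of 36 member pairs and by 5.51% of all pairs, and at least 0.7 by 5 member pairs and 0.751% of all pairs. These pairs share libraries, so they are described without a test against each other.

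**Figure D3:**
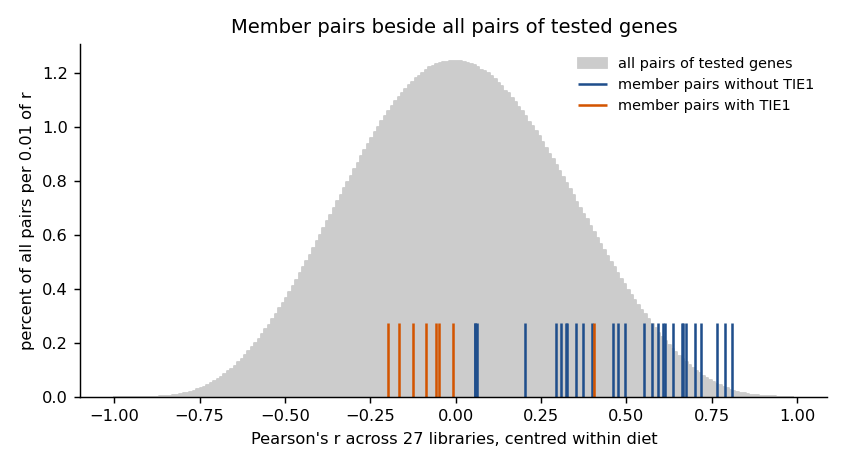
Distribution of Pearson's r over all pairs of tested genes (grey, percent of pairs per 0.01 of r) with each member pair as a line (blue without TIE1, orange with TIE1). The 28 pairs without TIE1 have a median of 0.52 and the 8 pairs with TIE1 a median of −0.07.

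The closest pair was CDH5 and KDR, with r = 0.81 (permutation p = 1e-05, the smallest that 100000 permutations can give, adjusted p = 0.00018) and rho = 0.70 (permutation p = 6e-05, adjusted to 0.00072). Within diets r was 0.64 in FF and 0.88 in RES, and within quality groups 0.67 and 0.85. Without RES sows 7 and 1, the libraries farthest from the median of CDH5, r was 0.64.

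PECAM1 and TEK followed with r = 0.79 (permutation p = 1e-05, adjusted to 0.00018) and rho = 0.71 (permutation p = 6e-05, adjusted to 0.00072). The values were 0.71 and 0.75 in the quality groups, and r was 0.67 without the 2 farthest libraries. CDH5 and PECAM1 had r = 0.77 (permutation p = 2e-05, adjusted to 0.00024) and rho = 0.79 (permutation p = 1e-05, adjusted to 0.00036), with 0.61 and 0.72 in the quality groups and 0.73 without the 2 farthest libraries. All 3 relations stayed positive within both quality groups and without the farthest sows.

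The pair of VEGF receptors, KDR and FLT1, had r = 0.72 (permutation p = 0.00012, adjusted to 0.000936) and rho = 0.60 (permutation p = 0.00129, adjusted to 0.0054), with 0.45 for the upper and 0.91 for the lower quality libraries and 0.57 without the 2 farthest libraries. CDH5 and FLT1 reached 0.70 (permutation p = 0.0002, adjusted to 0.00103) with rho = 0.69 (permutation p = 0.0001, adjusted to 0.0009), with 0.35 and 0.93 in the quality groups and 0.59 without the 2 farthest libraries. Within this set TEK was less close to CDH5, KDR and FLT1 without the 2 farthest libraries, RES sow 7 among them. Its r was then 0.34 with CDH5 (0.61 over all libraries), 0.41 with KDR (0.64) and 0.43 with FLT1 (0.59). In FF sows alone r between TEK and CDH5 was 0.32. EMCN was closest to TEK, at r = 0.66 (permutation p = 0.00016, adjusted to 0.00096) and rho = 0.65 (permutation p = 0.00023, adjusted to 0.00166), with 0.65 and 0.66 in the quality groups and 0.49 without the 2 farthest libraries. EMCN and CDH5, both called lower in RES, had r = 0.40 (permutation p = 0.0397, adjusted to 0.0794) and rho = 0.28 (permutation p = 0.164, adjusted to 0.227). That pair fell to 0.12 without RES sows 7 and 1, so it rested on those libraries. RES sow 7 was among the 2 libraries farthest from the median for every pair ordered by CDH5, EMCN, PECAM1, KDR, FLT1 or TEK, and leaving the 2 out lowered the median of the 36 pairs from 0.40 to 0.33.

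The angiopoietin receptor pair TEK and TIE1 had r = −0.20 (permutation p = 0.345, adjusted to 0.46) and rho = −0.20 (permutation p = 0.327, adjusted to 0.42), with −0.34 and −0.43 in the quality groups and −0.13 without the 2 farthest libraries. TIE1's highest r with a member was 0.41 with ESAM (permutation p = 0.0456, adjusted p = 0.0833, rho = 0.27 with permutation p = 0.175 and adjusted p = 0.233), which was 0.20 without RES sow 3 and FF sow 3. The sign of the low TIE1 values depended on the scaling. On counts scaled by the library total (CPM), TIE1 had r = 0.11 with CDH5, 0.16 with KDR and −0.05 with TEK, and 35 of 36 member pairs were positive. With DESeq2's size factors no pair with TIE1 had an adjusted p under 0.05, while 17 of the 28 pairs without it did. On CPM, in RES sows alone and without FF sow 13, 1 pair with TIE1 had an adjusted p under 0.05, beside 21, 14 and 19 pairs in all. The pair of tight junction genes, ESAM and CLDN5, had r = 0.20 (permutation p = 0.29, adjusted to 0.402) and rho = 0.28 (permutation p = 0.156, adjusted to 0.227), with 0.47 and −0.22 in the quality groups and 0.24 without the 2 farthest libraries. ESAM and CLDN5 are the members with the fewest counts.

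**Figure D4:**
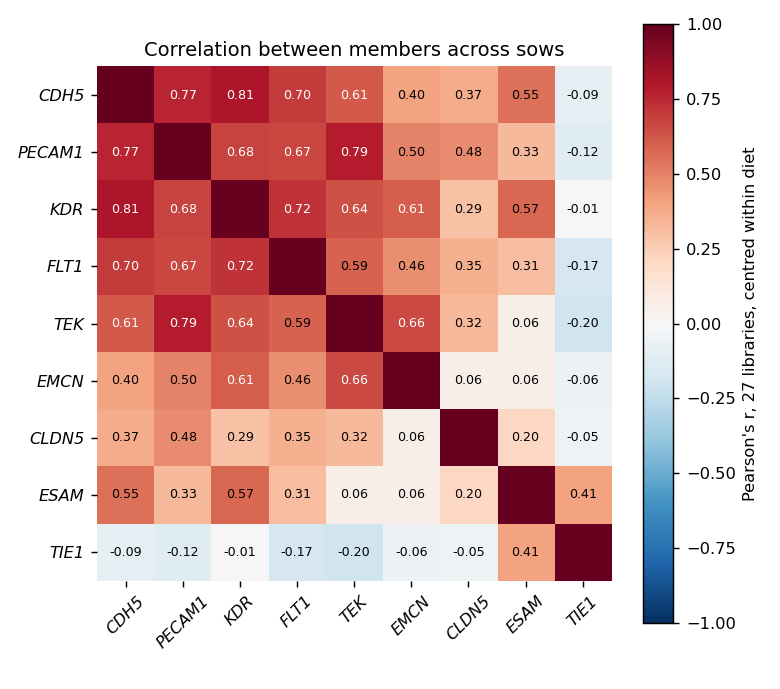
Pearson's r between members (colour from −1 to 1, values printed in the cells) across 27 libraries on log2 normalized counts with the diet means removed. CDH5, PECAM1, KDR, FLT1 and TEK have r from 0.59 to 0.81 with each other (0.34 to 0.73 without the 2 libraries farthest from the median of the pair's first gene). The TIE1 row and column lie between −0.20 and 0.41, or −0.05 and 0.48 on counts scaled by the library total (CPM).

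The genes with the most similar pattern among all 11384 tested were listed for each member by r, as a description over the 27 libraries they share. For CDH5 they were SLCO2A1 (0.85), a prostaglandin transporter, KDR (0.81), ROBO4 (0.80), ADGRF5 (0.79) and LDB2 (0.79). For PECAM1 they were ITGA1 (0.84), CYYR1 (0.84), LDB2 (0.83), NID2 (0.82) and PLK2 (0.81). For TEK they were CAVIN2 (0.87), PTPRB (0.86), ADGRL4 (0.84), CALCRL (0.83) and LAMA4 (0.83), a laminin chain of vessel basement membranes. These lists hold several genes of the other blood endothelial list.

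For KDR the nearest were ETS1 (0.84), a transcription factor of the ETS family, COBLL1 (0.83), CDH5 (0.81), LOXL2 (0.81) and WNK1 (0.81). For FLT1 they were NRP2 (0.76), a VEGF co-receptor, DYSF (0.75), STAB1 (0.75), HIVEP2 (0.75) and PLK2 (0.73). For EMCN they were GPHN (0.80), ADAMTS20 (0.79), PHC3 (0.78), ENPP2 (0.78) and GPR82 (0.77), none of them in the lists used. CDH5, PECAM1, KDR and TEK thus had an endothelial gene of the lists among their 5 nearest, while EMCN, FLT1, TIE1, ESAM and CLDN5 had none.

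For TIE1 the nearest included NGRN (0.72), ZFAND2B (0.71), SLC16A9 (0.70) and SCAMP2 (0.68). For ESAM they were ACSF3 (0.86), POR (0.86), IGF1R (0.84), INHBA (0.82), which is a granulosa gene, and UBQLN2 (0.82). For CLDN5 they were ARRDC2 (0.68), LAMB1 (0.68), SH3PXD2A (0.66), NHERF2 (0.65) and TBX2 (0.65). No other member was among the 114 genes, 1% of those tested, nearest to TIE1, ESAM or CLDN5. Among the 114 nearest genes there were 4 other members for PECAM1 and FLT1, 3 for CDH5 and KDR, 2 for TEK and 1 for EMCN.

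By list, the median r with the members was 0.42 for mural cell genes and 0.35 for other blood endothelial genes, beside 0.40 among the members themselves. It was 0.30 for lymphatic endothelial genes, 0.24 for theca and stroma genes, 0.18 for immune genes and 0.13 for erythroid and platelet genes. It was 0.07 for granulosa genes and 0.01 for junction partners. ESAM differed from this order, with a median r of 0.46 with granulosa genes and 0.18 with mural cell genes, and TIE1 had 0.28 with granulosa genes and −0.14 with mural cell genes.

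Ratios of members within a library do not depend on how the libraries are scaled. For the 36 pairs the log2 ratio of counts (0.5 added to each) was compared between diets by permutation tests over the 27 sows, two-sided, and 18 had p under 0.05 and 13 an adjusted p under 0.05 over the 36 pairs. The members thus differed by unequal amounts between the diets.

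PECAM1 relative to TEK was 1.81 ± 0.31 in FF (n = 13) and 2.24 ± 0.31 in RES (n = 14), a difference of 0.43 (permutation p = 0.00108, adjusted to 0.00732), although these genes moved together from sow to sow. All 14 RES sows were above the FF median of that ratio. CDH5 relative to PECAM1 was −1.34 ± 0.24 in FF and −1.77 ± 0.33 in RES, lower by 0.43 (permutation p = 0.00096, adjusted to 0.00732), and above the FF median in 1 of 14 RES sows. CDH5 relative to TEK, by contrast, was 0.47 ± 0.41 in FF and 0.47 ± 0.39 in RES (permutation p = 0.995, adjusted to 0.995).

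TIE1 relative to ESAM was 1.33 ± 0.67 in FF and 2.39 ± 0.56 in RES, a difference of 1.05 (permutation p = 0.00017, adjusted to 0.00612), with 14 of 14 RES sows above the FF median. EMCN relative to TIE1 was 3.25 ± 0.61 in FF and 2.12 ± 0.86 in RES (permutation p = 0.00044, adjusted to 0.00636). TEK relative to TIE1 was 0.97 ± 0.69 in FF and 0.01 ± 0.98 in RES (permutation p = 0.0068, adjusted to 0.0209). TIE1 thus stood higher against these members in RES than in FF GCs.

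PECAM1 relative to FLT1 differed by 0.04 (permutation p = 0.76, adjusted to 0.847), within the spread of 0.23 in FF and 0.43 in RES. EMCN relative to CLDN5 differed by −0.02 (permutation p = 0.948, adjusted to 0.975), and the counts of CLDN5 are low.

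**Figure D5:**
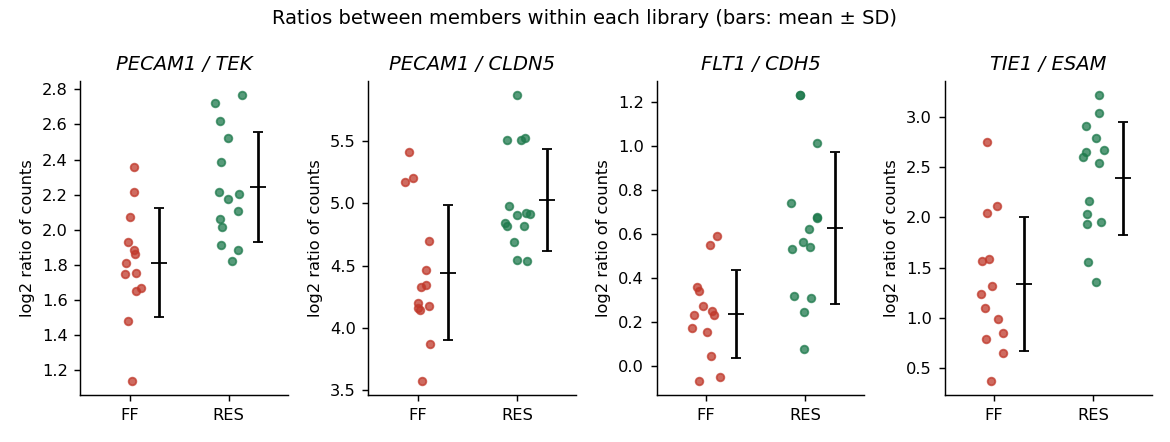
Log2 ratio of counts of 2 members within each FF (n = 13) and RES (n = 14) library, with bars for mean ± SD. The ratios PECAM1 to TEK, PECAM1 to CLDN5 and TIE1 to ESAM lie above the FF median in all 14 RES sows, and FLT1 to CDH5 in 13 of 14.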

How the data were processed

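The deposited counts are whole-number counts of read pairs on exons per gene. The authors aligned the reads to Sscrofa11.1 with HISAT2 2.2.1, removed PCR copies by unique molecular identifiers with UMI-tools 1.1.4 and counted with featureCounts 1.6.2 on Ensembl 110 models, without a strand option. The libraries mark strand, so the counts of genes overlapping on opposite strands are uncertain. SAMtools 1.16.1 is also named in the submitters' processing notes. The counts were not normalized, and 1 FF sow had been left out by the study for its RNA quality. The total counts bound the precision of low genes, and floors or intervals on counts would cover counting error only.

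Symbols came from a table of identifiers, and positions, lengths and sequences from the RefSeq annotation and genome of Sscrofa11.1. Genes with a symbol and a mean count of at least 5 were kept, and 38 small RNA symbols among them were left out. The remaining 11384 genes were tested with edgeR 4.0.16 (TMM, quasi-likelihood test, R 4.3.3), RES against FF. Benjamini-Hochberg adjustment was over all 11384 genes, and genes were called under an adjusted p of 0.05. Printed levels and correlations use counts scaled with DESeq2's size factors. Correlations and ratios were tested by 100000 permutations with Python 3.11.15, numpy 2.4.6 and scipy 1.17.1. Figures used matplotlib 3.10.9 and tables pandas 2.3.3. Alternatives used DESeq2 1.42.0, limma 3.58.1 (voom with sample quality weights), other scaling and filters, all identifiers, a replicate block, the quality groups, and leaving out each sow. The scripts were tested on simulated data.

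All members are named, and of each other list the called genes and the 3 tested genes with the highest counts. The members and lists were chosen with earlier results of these data known. Each library is a separate sow. The sows share only a number between diets, so the fit has no block. Names added after the values were seen are SELP, NOS3, ECSCR, ERG, FLI1, F11R, VCL, PPBP, SLC4A1, GP1BB, VEGFA, CCL21, INHA, FSHR and GATA4. Some genes and sequences are not reported here.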

Additional observations from a re-analysis of the deposited data

How the results depend on the processing

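Over all genes 1610 were called, and leaving out 1 sow at a time gave 1182 to 2350, the most without RES sow 7. Voom with sample quality weights called 3193 and the lower quality group alone called 1. Of the calls, 58.6% were higher in RES with TMM, 69.6% with the size factors of DESeq2 and 51.1% with upper-quartile factors, while 8 of 9 members were negative with each. The number of members called, 4, was 3 to 6 when 1 sow was left out, and 0 in the lower quality group. PECAM1 turned to a log2 fold change of 0.18 there. CDH5, EMCN and CLDN5 were called in all 27 fits without 1 sow. ESAM was not called with the size factors of DESeq2 (adjusted p = 0.0507), with all identifiers (0.0618), with the block below (0.0711) or in the lower quality group (0.548), and its adjusted p over all alternatives was 0.00164 to 0.548. CLDN5 was not called within the upper (0.0673) or the lower quality group (0.257). The number of correlated member pairs, 17, was 12 to 19 when 1 sow was left out, 5 in FF sows alone and 14 in RES sows alone. It was 11 without the 2 libraries farthest from the median of each pair's first gene. It was 21 on CPM, 25 without removing the diet means and 14 to 18 in the other alternatives. The cause was not tested. Same-numbered sows of both diets were not alike (r from −0.22 to 0.30, and 0 of 13 FF sows were most like their own number). With the number as a replicate block 1084 genes and 4 members were called, TEK in place of ESAM. A number shared between sows gives no pairing in the design. Both RES libraries of lowest base quality were left out as an alternative chosen after seeing the data, which gave 1465 genes, 4 members and 18 pairs. ESAM and CLDN5 have only 6 to 34 counts per library.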

Other observations

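Of 9 tested VEGF and angiopoietin ligands and co-receptors, 2 (22.2%) were called lower in RES GCs and 0 higher, beside 5.85% of all genes called lower and 8.29% higher. ANGPT1, the ligand that activates TEK, had 1915 ± 966 normalized counts in FF (n = 13) and 1057 ± 455 in RES (n = 14), and the fitted log2 fold change was −0.89 (SE 0.29) with an adjusted p = 0.0346 in edgeR. VEGFD, a ligand of KDR and of the lymphatic receptor FLT4, had 44.7 ± 49.9 in FF and 14.4 ± 11.9 in RES (log2 fold change −1.67, SE 0.47, adjusted p = 0.0192 in edgeR). VEGFA, the main ligand of KDR, had 122 ± 55.8 in FF and 128 ± 52.8 in RES, and ANGPT2 had 348 ± 192 and 348 ± 176, with log2 fold changes of 0.02 and −0.03 (adjusted p = 0.965 and 0.953 in edgeR). In the upper quality group the log2 fold changes were −1.63 for ANGPT1 (adjusted p = 0.0133 in edgeR) and −2.76 for VEGFD (adjusted p = 0.0169 in edgeR), against −0.15 and −0.34 in the lower group (adjusted p = 0.895 and 0.826 in edgeR). The differences between the groups had unadjusted p of 0.00816 and 0.0112 and adjusted p of 0.293 and 0.305 in edgeR. The call of ANGPT1 was lost in 10 of 27 fits without 1 sow (FF sow 2, 6, 7, 12 or 14, or RES sow 1, 3, 6, 11 or 12) and that of VEGFD in 2, without FF sow 6 or FF sow 14. The co-receptor NRP1, second in mean count to ANGPT1, had a log2 fold change of −0.39 (adjusted p = 0.146 in edgeR).

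Of 7 lymphatic endothelial genes 1 (14.3%) was called lower, beside 5.85% of all genes. It was PROX1, the transcription factor of lymphatic identity, with 26.4 ± 9.62 in FF and 14.1 ± 11.3 in RES (log2 fold change −0.93, SE 0.29, adjusted p = 0.0308 in edgeR). Without RES sow 7, 5 of the 7 were called lower, beside 9.63% of all genes. In the lower quality group edgeR called 0 of the 7, with 4 negative and a median log2 fold change of −0.06. It gave 0 of them an unadjusted p under 0.05, beside 1385 of all 11384 genes. The call of PROX1 was lost in 6 of 27 fits without 1 sow (FF sow 2, or RES sow 1, 6, 9, 11 or 12). CCL21, with the lowest log2 fold change of this list, was at −1.01 (adjusted p = 0.0768 in edgeR). LYVE1 and MMRN1 were at 0.13 and −0.81 and did not pass.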
